A study of Mus musculus with 2 samples.

Results

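The Kruppel-like factor (Klf) genes described here are Klf2, Klf3, Klf4, Klf6, Klf7, Klf9, Klf10, Klf11, Klf13 and Klf15, 10 of the 13 Klf genes and 10 of the 4331 genes that a single-gene probe measured. They were chosen by their measured values: a Klf gene was included when its log ratio had the same sign on both arrays, so the shared sign is a condition of entry and not a result. The arrays compared LAT3YF with wildtype gamma delta T cells. LAT is the adaptor protein that links the T cell receptor to its downstream enzymes, and in the 3YF allele tyrosines of LAT are replaced by phenylalanine. Both populations came from spleen and were isolated through CD5, a T cell surface glycoprotein, with magnetic beads and a cell sorter. The age, sex and strain background of the mice, and how many were pooled, are not stated in the labels.

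Each of the 2 arrays carried LAT3YF cells in one channel and wildtype cells in the other, and the dyes were exchanged between the + polarity and the - polarity array. The sign of the - polarity array was turned so that both arrays run the same way. Nothing in the labels names separate animals or RNA extracts, so the 2 arrays were counted as 1 replicate, no test of the genotypes was possible, and each SD is the technical spread of the 2 arrays. The dye of each channel and the numerator of the ratio are not stated. A negative ratio therefore stands for one population throughout and a positive ratio for the other, and which of them is LAT3YF is not settled. Folds assume that the deposited logarithms have base 10. If they had base 2, the largest Klf ratio given below, 4.44-fold for Klf15, would be 1.57-fold.

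Kruppel-like factors are transcription factors that bind GC-rich and CACCC sequences through zinc fingers at their carboxy terminus, while their divergent amino termini recruit activators or repressors. In T cells the family is best known through KLF2 and KLF4, which hold resting cells out of division. KLF2 also maintains receptors for recirculation through lymphoid organs and is lost on activation. Several family members are abundant outside the T lineage as well, with KLF4 known in monocytes, KLF1 in erythroid cells and KLF2, KLF4 and KLF6 in endothelium.

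Of the 10 genes, 9 lay on the negative side and Klf10 alone lay on the positive side. A gene was called when its mean ratio was at least 2-fold in size and of 1 sign on both arrays. Klf15, Klf4 and Klf7 were called negative, no member was called positive, and 7 members were below the threshold. Among all 4331 genes, 8.75% were called, 5.03% negative and 3.72% positive, and 59.6% had ratios of 1 sign across the pair of arrays. Because the members were chosen on these same ratios, nothing is read from their count against that background. The median log10 ratio of the 10 members was -0.212 (1.63-fold), and it was -0.162 over all 13 Klf genes, against 0.0023 over all genes. Within the 10, the median was -0.169 for the + polarity array and, after turning, -0.235 for its dye-reversed partner.

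**Figure D1:**
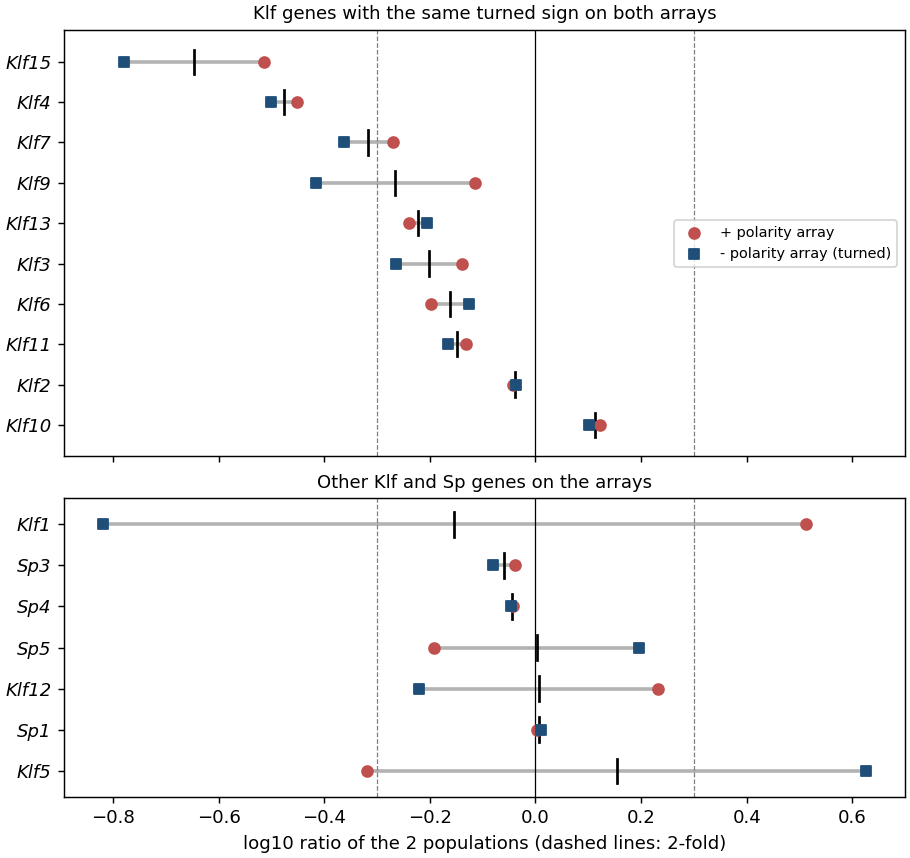
Log10 ratio of the 2 populations (x axis) for each Klf gene with the same sign on both arrays (upper panel) and for the other Klf and Sp genes (lower panel); circles are the + polarity array, squares the turned - polarity array, black ticks their mean and dashed lines 2-fold. Klf15, Klf4 and Klf7 have means beyond the negative 2-fold line, Klf10 alone lies on the positive side in the upper panel, and Klf1, Klf5 and Klf12 have points on both sides of 0.

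The RefSeq promoter windows of the 3 called genes are printed here with that of Klf2, the member nearest to 0, because the results turn on these genes. Each window runs from 250 bases before to 50 bases after the start site in GRCm38.p6 and is written 5' to 3' on the gene's own strand. Capitals mark GC boxes (GGGCGG) and CACCC boxes (CACCC), the kinds of site that Kruppel-like factors bind, E-boxes (CACGTG), which clock factors bind, and the MEF2 core (CTA and TAG around any 4 bases), all searched on both strands.
Klf15 promoter, chr6:90462326-90462625, plus strand: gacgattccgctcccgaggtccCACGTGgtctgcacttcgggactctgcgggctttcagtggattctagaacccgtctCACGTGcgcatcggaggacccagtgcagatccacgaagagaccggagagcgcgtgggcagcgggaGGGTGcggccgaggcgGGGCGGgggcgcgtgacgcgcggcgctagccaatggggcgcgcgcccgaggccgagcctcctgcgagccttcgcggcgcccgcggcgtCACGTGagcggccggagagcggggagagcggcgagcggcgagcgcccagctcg
Klf4 promoter, chr4:55532426-55532725, minus strand: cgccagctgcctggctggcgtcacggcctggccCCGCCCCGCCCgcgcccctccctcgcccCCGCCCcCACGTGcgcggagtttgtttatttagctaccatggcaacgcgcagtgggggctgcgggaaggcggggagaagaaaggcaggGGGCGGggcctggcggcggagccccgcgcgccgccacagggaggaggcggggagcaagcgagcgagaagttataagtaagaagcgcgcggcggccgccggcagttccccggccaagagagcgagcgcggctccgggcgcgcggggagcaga
Klf7 promoter, chr1:64121340-64121639, minus strand: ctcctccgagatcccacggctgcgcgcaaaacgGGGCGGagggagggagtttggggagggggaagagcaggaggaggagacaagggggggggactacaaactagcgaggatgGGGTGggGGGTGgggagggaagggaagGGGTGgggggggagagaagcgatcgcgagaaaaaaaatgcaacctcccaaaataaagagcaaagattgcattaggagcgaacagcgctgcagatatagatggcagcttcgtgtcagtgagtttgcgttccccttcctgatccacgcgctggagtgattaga
Klf2 promoter, chr8:72318812-72319111, plus strand: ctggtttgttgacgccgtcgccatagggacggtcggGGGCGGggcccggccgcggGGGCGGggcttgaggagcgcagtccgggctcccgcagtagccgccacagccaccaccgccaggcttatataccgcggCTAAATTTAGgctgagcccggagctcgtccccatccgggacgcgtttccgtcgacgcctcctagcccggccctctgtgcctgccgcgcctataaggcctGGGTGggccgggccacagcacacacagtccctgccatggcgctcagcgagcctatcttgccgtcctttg

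Klf15, a factor of glucose and amino acid metabolism that is best known in liver, muscle and heart and is induced by glucocorticoids, had the largest ratio of the family. Its log10 ratio was -0.515 on the + polarity array and -0.780 on the turned - polarity array, with a mean of -0.647 ± 0.187 (SD, 2 arrays). Both arrays were past 2-fold, at 3.27-fold and 6.02-fold, so they differ in size by more than they do for most members. It ranked 54th from the negative end of the 4331 genes.

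Klf4, which restrains the division of CD8 T cells and shapes monocyte differentiation, gave -0.451 on the + polarity array and -0.501 on the turned - polarity array. Its mean of -0.476 ± 0.0356 corresponds to 2.99-fold, and it ranked 99th from the negative end. The 2 arrays lay close together, at 2.82-fold and 3.17-fold. Klf15 and Klf4 were the 2 members past 2-fold on each array alone.

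Klf7, known for its role in the outgrowth of neurons, was the only member with 2 probes. The first gave -0.246 and -0.343 on the + and the turned - polarity array, a mean of 1.97-fold, and the second gave -0.294 and -0.384, a mean of 2.18-fold. The probes thus lay on the same side with similar sizes but on either side of the threshold. The gene mean was -0.317 ± 0.0660 (2.07-fold). On the + polarity array alone it was -0.270, below 2-fold, and on the - polarity array alone -0.363, so the call rests on the - polarity array.

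Klf9, a factor induced by glucocorticoids and thyroid hormone, was the member just below the threshold, at -0.266 ± 0.214 (1.84-fold). It had the widest spread of the 10, with -0.115 on the + polarity array and -0.417 on the turned - polarity array. It would be called on the - polarity array alone, at 2.61-fold, and was 1.30-fold on the + polarity array.

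Klf13, an activator of the chemokine gene Ccl5 in T cells, was at -0.240 on the + polarity array and -0.205 on the turned - polarity array, a mean of 1.67-fold. Klf3, a repressor that acts with the CtBP corepressors, was at -0.140 and -0.265 on the same arrays, a mean of 1.59-fold. Neither reached 2-fold on either array. Klf6, a widely expressed and rapidly inducible factor, was at -0.198 and -0.126, a mean of 1.45-fold. The TGF-beta-inducible Klf11 was at -0.132 and -0.166, a mean of 1.41-fold. These 4 genes formed the middle of the family, between 1.41-fold and 1.67-fold on the negative side.

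Klf2, the factor most closely tied to T cell quiescence and homing, was the member nearest to 0. Its log10 ratio was -0.0419 on the + polarity array and -0.0363 on the turned - polarity array, a mean of -0.0391 ± 0.00398 (1.09-fold). Klf2 and Klf4, both linked to T cell quiescence, had ratios of different size, but with 1 replicate the difference between them has no test. Klf10, a TGF-beta-inducible factor of regulatory and helper T cells, was at 0.122 and 0.102, a mean of 0.112 ± 0.0141 (1.29-fold) on the positive side. Its closest relative in the family, Klf11, lay on the negative side on both arrays.

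In order from the most negative mean, the members ran Klf15, Klf4, Klf7, Klf9, Klf13, Klf3, Klf6, Klf11, Klf2 and Klf10. The array values overlapped between Klf7 and Klf9, between Klf9 and Klf13 and between Klf13 and Klf3, and those of Klf3, Klf6 and Klf11 overlapped as well, so the order in that stretch is within the technical spread. Klf15 and Klf4 did not overlap each other or any other member, and neither did Klf2 and Klf10. The median SD of the members was 0.0434, against 0.0579 over all genes, and members with discordant arrays could not enter the group. The - polarity array gave the larger size in 6 members and the + polarity array in 4.

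Klf1, Klf5 and Klf12 stood outside the group because their arrays had opposite signs. Klf1, the master regulator of erythroid genes, was at 0.513 on the + polarity array and -0.820 on the turned - polarity array. Klf5, a factor of dividing epithelium, was at -0.319 and 0.627. In both genes the part of the ratio that followed the dye exceeded the mean, which was 1.42-fold for Klf1 and 1.43-fold for Klf5, so neither gene has a usable direction. Klf12, a CtBP-dependent repressor, had the smallest opposing values of the 3, at 0.233 and -0.221, a mean of 0.00575. The part that followed the dye, 0.227, exceeded this mean too, so Klf12 has no usable direction either. Among the members, the smallest values were those of Klf2.

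**Figure D2:**
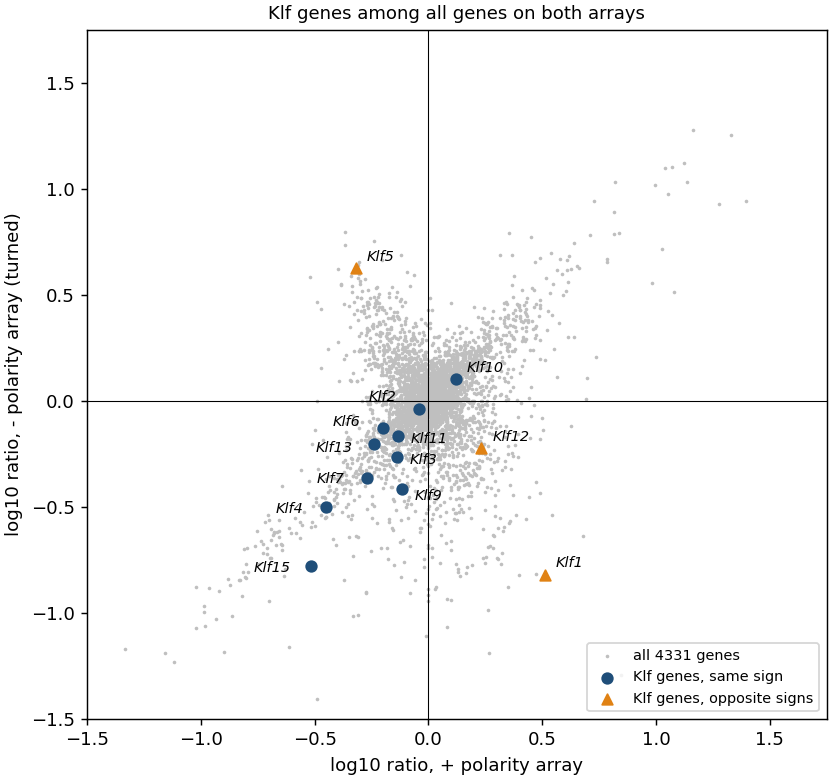
Log10 ratio on the + polarity array (x axis) against the turned - polarity array (y axis). Grey points are the 4331 genes, without those beyond the axis limits. Blue circles are the 10 Klf genes with the same sign and orange triangles the 3 with opposite signs. The called genes Klf15, Klf4 and Klf7 lie on the negative arm where both arrays go the same way, and Klf1 and Klf5 lie far out in the quadrants where they do not.

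The Sp factors, relatives that bind the same GC boxes, had mean ratios close to 0. Sp1 was at 0.00697 ± 0.00521, Sp3 at -0.0602 ± 0.0300 and Sp4, over 3 probes, at -0.0441 ± 0.00291. Sp5 had opposite signs, with -0.193 on the + polarity array and 0.197 on the turned - polarity array. No Sp gene was called. Zinc finger sequences are closely related within the family and the probe sequences were not analysed here, so signal shared between Klf probes cannot be told apart from separate signals.

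The promoter windows of 9 members were matched in the RefSeq table, and Klf10 was not matched. They lie on 9 different chromosomes. Their median GC content was 72.0%, against 52.7% over the 32851 windows of the table. The motif shares given below are over all windows, and windows of matched GC content were not compared. GC boxes were found in 8 of the 9 windows and in 35.7% of all windows. Klf3 held the most, with 6, Klf4 and Klf11 held 4 each, and Klf9 held none. CACCC boxes occurred in 6 of 9 member windows and 57.5% of all windows, with 5 in Klf3 and 3 in Klf7. A GC box and a CACCC box shared bases at 1 place each in Klf3 and Klf13.

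E-boxes were found in Klf15, Klf4, Klf11 and Klf6, and in 7.15% of all windows. Klf15 held 3 of them, the last across the start site, and 0.0883% of all windows held 3 or more. The MEF2 core occurred in Klf2 alone of the 9, as CTAAATTTAG, and in 3.69% of all windows. MEF2 factors are the known link from the kinase ERK5 to Klf2. The FOXO site GTAAACA (3.65% of all windows) and the AP-1 site TGANTCA (7.81%) each had 1 match, both in Klf9. The cyclic AMP response element TGACGTCA (1.79%) and the glucocorticoid response element, AGAACA and TGTTCT around any 3 bases (0.00913%), had no match in the 9 windows. The windows of the called genes differed in their most frequent motif, with E-boxes leading in Klf15, GC boxes in Klf4 and CACCC boxes in Klf7. At least 4 GC boxes were found in 5.49% of all windows, and at least 3 CACCC boxes in 9.35%. The windows also shared motifs. All of them held a GC box, Klf15 and Klf7 both held CACCC boxes, and Klf15 and Klf4 both held E-boxes. A match describes letters in the window and shows no binding.

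**Figure D3:**
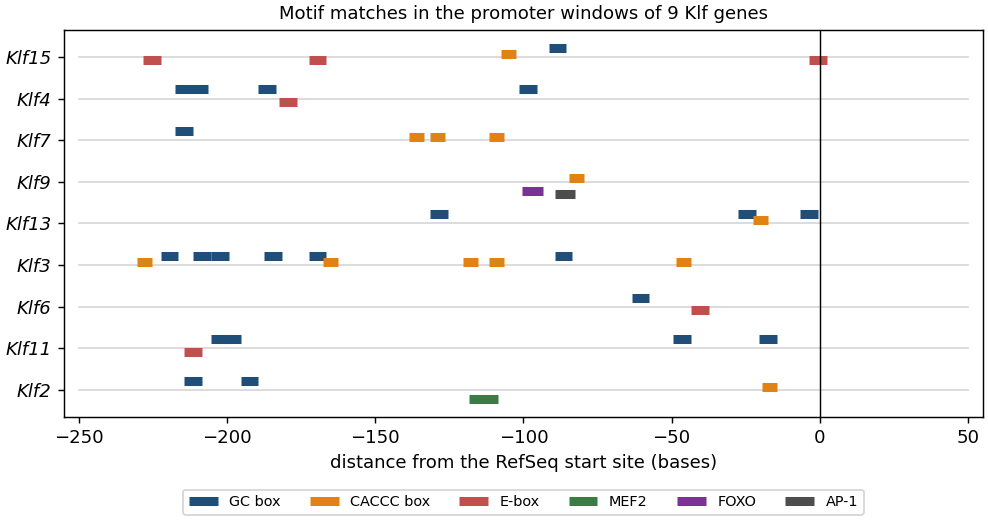
Positions of motif matches (coloured bars) in the promoter windows of 9 Klf genes, by distance in bases from the RefSeq start site (x axis, start at 0), with the genes ordered by mean ratio from Klf15 at the top to Klf2 at the bottom. Klf15 has 3 E-boxes, Klf4 has 4 GC boxes, Klf7 has 3 CACCC boxes and Klf2 has the MEF2 core.

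Genes that act before or after the Kruppel-like factors showed no single direction. Beside the list counts here and below, 5.03% of all 4331 genes were called negative and 3.72% positive. Of 13 listed genes upstream of Klf2 and Klf4, 5 were measured and none was called. Map3k3, a kinase of the ERK5 cascade, was the one with the same sign on both arrays, at -0.0892 ± 0.0201 (1.23-fold). Of 7 receptors that KLF2 sustains in resting T cells, 6 were measured and 1 was called, the lymph node homing receptor gene Ccr7 at -0.317 on the + polarity array and -0.638 on the turned - polarity array. S1pr1, the receptor for exit from lymphoid organs and a direct KLF2 target, was at -0.107 ± 0.0904, and the gut-homing integrin chain gene Itgb7 at 0.107 ± 0.0175. The list's median was -0.0183. None of the 4 measured genes that KLF2 holds down was called. Their largest ratio was that of the type 2 cytokine gene Il4, at 0.391 on the + polarity array and 0.00553 on the turned - polarity array, followed by Myc at -0.176 ± 0.0231, the eotaxin receptor gene Ccr3 at 0.152 ± 0.0123 and Cxcr3 at -0.0869 ± 0.0539.

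Reported targets of single members had positive ratios in all 3 measured of 6. They mix activated and repressed targets, so the shared sign has no single reading, and the activity of the factors was not tested. Cdkn1a, the cell-cycle inhibitor gene that KLF4 activates, was at 0.786 on the + polarity array and 0.670 on the turned - polarity array, a mean of 5.35-fold, on the side opposite to Klf4. Ccl5, the target of KLF13, was at 0.406 and 0.376, a mean of 2.46-fold, also opposite to its factor. Lgals3, which KLF3 represses, was at 0.200 ± 0.0837 (1.58-fold) and was not called. Among 12 measured genes of cell-cycle inhibition and quiescence, 2 were called positive and 0 negative, Cdkn1a and the pocket protein gene Rbl2 at 0.432 ± 0.0837 (2.70-fold). The median was 0.0632. Cdkn2a was at 0.293 ± 0.0822 (1.97-fold), and Btg1, an antiproliferative gene of resting lymphocytes, was at -0.207 ± 0.0460 (1.61-fold).

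Genes of cell division lay on the side opposite to most Klf genes. Of 23 measured, 10 were called positive and 0 negative, and 22 had a mean above 0. The median was 0.218 (1.65-fold). Rrm2, the ribonucleotide reductase subunit, was at 1.11 ± 0.246, Nek2 at 0.590 ± 0.0373, Mki67 at 0.467 ± 0.0105 and Hells at 0.457 ± 0.220.

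Genes tied to the inducers of the family lay on both sides. Of 17 measured genes of the TGF-beta pathway, which induces Klf10 and Klf11, 1 was called positive, the ligand gene Tgfb2 at 0.562 ± 0.133 (3.65-fold), and 1 negative, the induced matrix protein gene Tgfbi at -0.478 ± 0.0605 (3.01-fold). Tgfbi is also abundant in macrophages. The receptor gene Acvrl1 was at -0.297 ± 0.0941 and the ligand gene Tgfb3 at 0.173 ± 0.185. The list's median was 0.0586 and turned negative on the - polarity array alone, at -0.0133. Of 7 measured glucocorticoid-linked genes, none was called, and their median was -0.178 (1.51-fold). The phosphatase gene Dusp1 was at -0.233 ± 0.0152, the kinase gene Sgk1 at -0.224 ± 0.0142 and Zbtb16 at -0.181 ± 0.0313, while Anxa1 was at 0.210 ± 0.0742. Means below 0 were found in 4 of the 7 and means above 0 in 3.

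Of 7 measured clock genes, 1 was called, the repressor gene Nfil3 at 0.387 ± 0.0564 (2.44-fold). Rora was at 0.131 ± 0.0115, Nr1d2 at 0.129 ± 0.0629 and Arntl at -0.0518 ± 0.00610, and the median was 0.0311. Of 6 measured cofactor genes of the family, 1 was called, the LIM protein gene Fhl3 at 0.336 ± 0.0530 (2.17-fold). Sap30, of the SIN3 repressor complex that KLF10 and KLF11 recruit, was at 0.321 on the + polarity array and 0.0331 on the turned - polarity array. Sin3b was at 0.0837 ± 0.0140 and Rbbp4 at 0.0545 ± 0.0194, and the median was 0.0691.

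Klf4 and Klf6 are rapidly inducible genes, and most other immediate early genes lay on their side. Inducible members did not all share that sign. The TGF-beta-inducible Klf10 had the opposite one, with 0.122 on the + polarity array and 0.102 on the turned - polarity array. Klf11, also TGF-beta-inducible, had the same sign as Klf4 and Klf6, with -0.132 and -0.166. Of 20 measured, 2 were called negative, Rgs2 at -0.701 ± 0.0356 and Jun at -0.341 ± 0.0574, and 1 positive, Ier3 at 0.496 ± 0.0561. Means below 0 were found in 16 of the 20, among them Junb at -0.289 ± 0.136, and the median was -0.155. The immediate early list and the Klf members were both chosen with ratios of these arrays known.

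**Figure D4:**
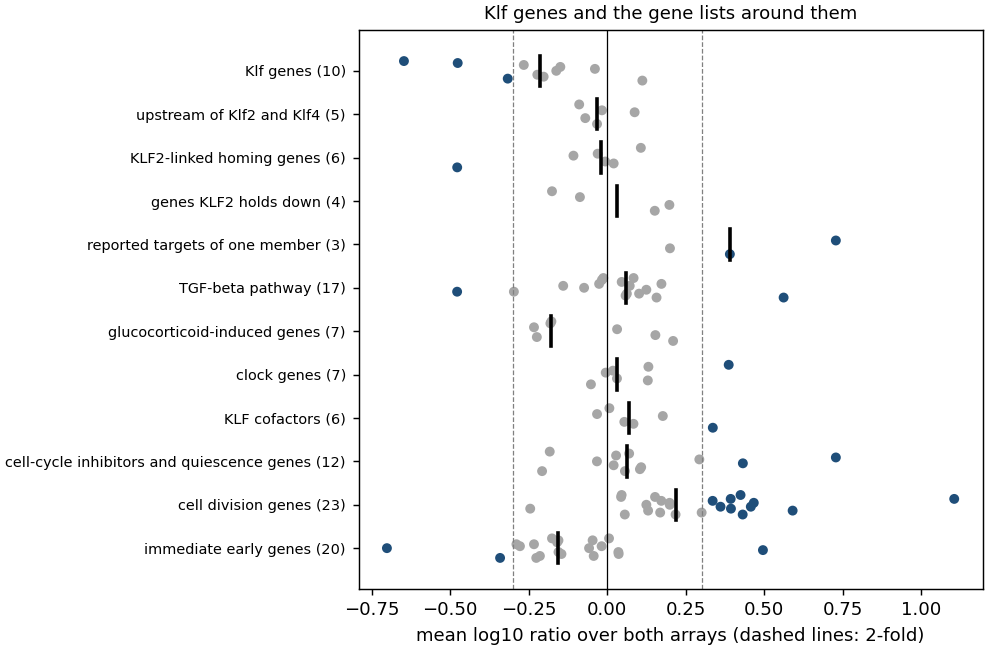
Mean log10 ratio over both arrays (x axis) of the 10 Klf genes and of the measured genes of each list around them (number in brackets); blue points were called, grey points were not, black bars are medians and dashed lines 2-fold. The Klf genes have a median of -0.212, the immediate early genes -0.155, the glucocorticoid-linked genes -0.178 and the cell division genes 0.218.

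Markers of macrophages, NK cells and B cells lay mainly on the same side as the 9 negative Klf genes. Of 18 measured macrophage and monocyte markers, 16 were called negative and 0 positive, all 18 had the same sign on both arrays, and their means ran from -1.17 to -0.0221 with a median of -0.828 (6.73-fold). The iron exporter gene Slc40a1 was at -1.17 ± 0.0205, Adgre1 at -1.05 ± 0.0346, Vcam1 at -1.02 ± 0.0580 and Mrc1 at -0.982 ± 0.0660. Of 8 measured NK cell markers, 6 were called negative with a median of -0.512, led by Klrd1 at -0.979 ± 0.0120, Klrb1c at -0.755 ± 0.0812, Klra1 at -0.731 ± 0.133 and Klrc1 at -0.624 ± 0.118. Of 11 measured B cell markers, 4 were called negative with a median of -0.245, namely Ighm at -0.719 ± 0.0310, the surface protein gene Cd72 at -0.568 ± 0.0236, the adaptor gene Blnk at -0.505 ± 0.0692 and the antigen receptor chain gene Cd79b at -0.482 ± 0.0650. In each of these 2 lists 1 mean was above 0, that of the NK marker Itga2 (0.07655) and that of the B cell marker Cd22 (0.193). Of the 11 B cell markers, 9 had the same sign on both arrays and 7 were not called. All 8 NK cell markers had the same sign on both arrays. The NK marker Ncr1 was at -0.0723 and was not called. The 6 called NK markers were all lectin receptor genes of the Klr family. Whether their signal came from NK cells or from the sorted T cells was not tested. The ratios of Klf15 and Klf4 were smaller than the median ratio of the macrophage markers but lay within the range of those markers. Both were larger than the median of the B cell markers. Klf15 was also larger than the median of the NK cell markers, and Klf4 was smaller.

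Of 5 measured erythroid and platelet markers, 2 passed on the negative side, the erythropoietin receptor gene Epor at -0.604 ± 0.0574 and the globin gene Hba-a1 at -0.388 ± 0.00431, and the median was -0.125. Itga2b was at -0.0969 ± 0.0129 and Gata1 at 0.0685 ± 0.0287. Of 8 measured endothelial and stromal markers, 1 was called positive, Cxcl13 at 0.305 ± 0.0945. The endothelial adhesion gene Pecam1 was at -0.250 ± 0.0641. Only these 2 of the 8 had the same sign on both arrays, so the others have no usable direction. The median of the 8 was 0.0553, and the - polarity array taken by itself gave -0.0600.

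Of 8 measured T cell markers, 1 was called positive, Cd5 at 0.614 ± 0.00771 (4.11-fold), the gene of the sorting marker. Lat was at 0.179 ± 0.0105 (1.51-fold), Cd2 at 0.205 ± 0.00856 and Cd247 at -0.185 ± 0.135. The list's median was 0.123. The deposited ratios hold no levels, so whether a defining marker was absent from either population could not be read. In these bulk samples fewer cells of a type and less RNA per cell cannot be told apart. What part the transcripts of cells other than T cells had in the Klf ratios, or in the macrophage, NK and B cell marker lists, was not tested.

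**Figure D5:**
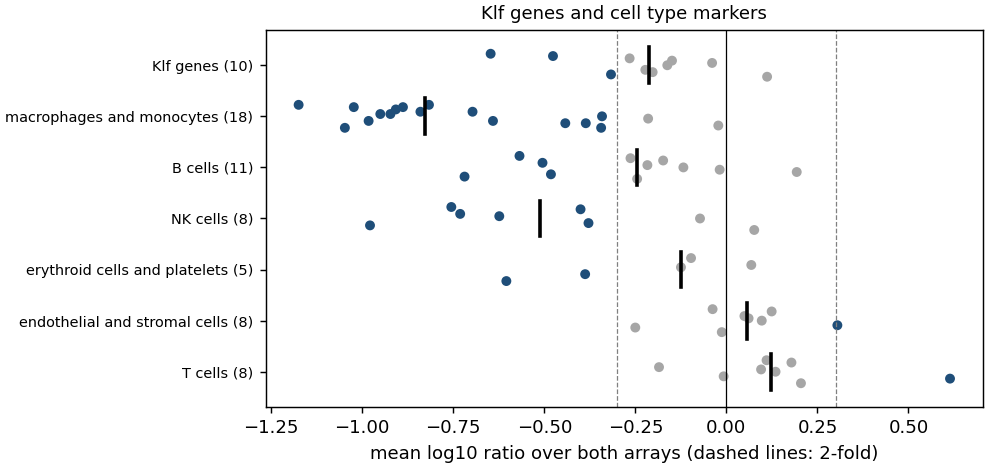
Mean log10 ratio over both arrays (x axis) of the 10 Klf genes and of the measured markers of each cell type (number in brackets); blue points were called, grey points were not, black bars are medians and dashed lines 2-fold. The macrophage markers have a median of -0.828 and the T cell markers 0.123, with the Klf genes between them at -0.212.

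Over the 2 arrays, the genes with the values nearest to those of Klf15 were Thra, Klra1 and Epor, at distances of 0.115, 0.130 and 0.144 on the log10 scale. Those nearest to Klf10 were Lsm7, Naa35 and Snu13, at 0.00467, 0.00543 and 0.00547. With 1 ratio per array, nearness means only a ratio of similar size on both.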

How the data were processed

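The deposited table holds, for each of 8014 probes, 1 ratio of the 2 channels per array. The authors computed these ratios and put them on a log scale before they deposited them, and they were taken as log10 values here, since no source states the base. For the scanner, background correction, normalization and numerator nothing is stated, and intensities were not analysed here. The deposited medians were -0.00284 (+ polarity) and 0.00101 (- polarity), and the columns correlated at Pearson r = -0.301 across probes before turning. The platform annotation gave 1 gene for 4654 probes, several for 73 and none listed for 3287. Probes of a gene were averaged after turning, which gave 4331 genes. The annotation ties the Klf15, Klf7 and Klf11 probes to expressed sequence tags.

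A call needed a mean of at least 2-fold and the same sign on both arrays. This rule goes by size and gives no p-value. The 2 arrays limit the precision. The members, and 18 gene lists, were chosen with earlier results of these data known. Named were all members, all measured Klf and Sp genes, the 4 largest same-sign genes per list, Lat and Cd5, and the 3 genes nearest to the leading member on each side. Itga2, Ncr1 and Cd22 were named in addition, as NK and B cell markers with positive or small ratios. Python 3.11.15 and pandas 2.3.3 were used. Promoters came from the RefSeq table (GRCm38.p6). Alternatives were single arrays, centring, scaling, other thresholds, other log bases and the largest probe.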

Additional observations from a re-analysis of the deposited data

How the results depend on the processing

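The members were chosen for 1 sign on both arrays, so their sign on either array alone says nothing about stability. The number of members called negative was 3 with centred arrays, with centred and scaled arrays and with the largest probe. It was 2 on the + polarity array alone (Klf15 and Klf4), where 452 of 4331 genes were called, and 4 on the - polarity array alone (with Klf7 and Klf9), where 742 were called. It was 6 at 1.5-fold (adding Klf9, Klf13 and Klf3), with 774 genes called, and 1 at 3-fold (Klf15), with 144 called. It was 0 if the values were log2, with 17 genes called, and 0 if they were natural logs, with 62 called. The totals over all genes in these comparisons take both sides together, while the member counts are of the negative side alone. Under the main rule, 379 genes were called on either side, and 218 of them were negative. No member was called positive under any of these settings, and no test of the conditions could be made on 1 replicate. In the 12 lists around the members, genes called negative numbered 4, between 6 and 8 on single arrays and 16 at 1.5-fold, and genes called positive numbered 17, with 26 at 1.5-fold and 5 at 3-fold. In the marker lists of other cell types, genes called negative numbered 28, between 27 and 31 on single arrays, 32 at 1.5-fold and 21 at 3-fold. Genes called positive there numbered 1, Cxcl13, between 0 and 1 on single arrays, 2 at 1.5-fold (adding Cd22) and 0 at 3-fold. The sign of the list median was kept in 83 of 90 recomputed values. The exceptions were the other Klf and Sp genes, the genes upstream of Klf2 and Klf4, those that KLF2 holds down, the TGF-beta pathway and the endothelial markers, whose medians lie near 0. Signal over background was not analysed here.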
